A study of Homo sapiens with 12 samples.

Results

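The response of LNCaP cells to knockdown of FOXA1 was compared, gene by gene, with their response to knockdown of TRIM28. These cells are an established line from a human prostate carcinoma that responds to androgen, and some of the labels spell the name LACAP. All 12 RNA sequencing libraries of the series entered the comparison, in 4 groups of 3 biological replicates: shRNA-FOXA1 cells with their own control shRNA cells, and shRNA-TRIM28 cells with a separate set of control shRNA cells. The knockdown titles of both pairs read SH control, so these groups were taken from the treatment labels. The genotype labels change their gene number from sample to sample within 3 of the 4 groups and were not used. The sources used here do not state the hairpin sequences, the time after transduction or whether cells were pooled or cloned. The effect of a knockdown is the log2 ratio of its level to that of its own control, and the measure of interest is the FOXA1 effect minus the TRIM28 effect. Of 60835 gene symbols, 15921 had enough counts to be tested for that difference, and 1683 passed at an adjusted p of 0.05 (10.6%, edgeR's quasi-likelihood test with Benjamini-Hochberg adjustment).

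FOXA1 is a forkhead transcription factor that binds nucleosomal DNA and opens enhancers, and in luminal prostate cells it prepares many of the sites that the androgen receptor uses. TRIM28, also called KAP1, is a scaffold protein that KRAB zinc finger proteins bring to DNA, where it gathers the histone methyltransferase SETDB1, HP1 proteins and the NuRD complex to silence genes and retroelements. Genes that lie downstream of both factors can move together when either is lost, so the genes set out here are those where the effects part: in sign, in presence or in size.

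FOXA1 (ENSG00000129514, GRCh38 chromosome 14, 37589552 to 37596059, minus strand) stood at 29.5%, 28.7% and 29.2% of its control mean in the 3 FOXA1 knockdown libraries, and at 47.1%, 42.6% and 70.1% in the TRIM28 knockdown libraries. The TRIM28 gene itself (ENSG00000130726, GRCh38 chromosome 19, 58544064 to 58550722, plus strand) kept 31.9%, 28.2% and 14% of its control mean in the TRIM28 knockdown, and 87.9%, 89.7% and 86.8% in the FOXA1 knockdown. Each targeted gene was thus lowest in its own knockdown, and each also fell in the other one. The fall of TRIM28 with FOXA1 knockdown was small (log2 fold change -0.18, adjusted p = 0.00289) and was not called with effects from all 12 libraries (adjusted p = 0.562). Both differed between the knockdowns (FOXA1 difference -0.87, SE 0.20, adjusted p = 0.0144; TRIM28 difference 1.83, SE 0.32, adjusted p = 0.00647). TRIM24, another TRIM family coregulator, had a difference of -0.01 (adjusted p = 0.971).

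Library totals lay between 12256092 and 15152890 counts. The summed level of 6 luminal epithelial markers was 2316 to 2530 CPM (counts relative to library size scaled by TMM) in the controls and 1637 to 1795 CPM in the knockdowns. Leukocyte markers summed to 1.5 to 4.42 CPM and neuroendocrine markers to 1.7 to 3.19 CPM in any library. The 3 basal epithelial markers summed to 2.97 to 3.54 CPM in the FOXA1 knockdown, 0.306 to 2.31 CPM in the TRIM28 knockdown and 0.311 to 1.01 CPM in the controls. Most of this was KRT14 in the FOXA1 knockdown (2.51 to 3.40 CPM), while TP63 lay at 0 to 0.270 CPM in all libraries. Replicate 3 of the TRIM28 knockdown stood apart: the chi-square per degree of freedom between counts was 25.8 and 23.3 against replicates 1 and 2, and 3.12 to 6.31 for all other replicate pairs. In that library the 11 stromal markers summed to 462.6 CPM, against 32.5 to 45.4 CPM in the other 11 libraries. COL3A1 read 185 CPM, COL1A1 127 CPM and COL1A2 84.7 CPM there. DCN (24.2 CPM), PDGFRA (20.5 CPM), LUM (12.9 CPM) and POSTN (2.23 CPM) also lay above every other library. FAP (0.319 CPM), THY1 (0.638 CPM), MYH11 (2.87 CPM) and DES (1.91 CPM) lay near their levels elsewhere. The 8 endothelial markers summed to 12.2 to 18.3 CPM in the TRIM28 knockdown, against 5.36 to 9.01 CPM elsewhere; most of this was VWF, and KDR added 4.94 CPM in replicate 3. What part this library had in each result was not tested beyond the values without it, which stand beside the counts below. In bulk RNA, fewer cells of a type and less RNA per cell cannot be told apart.

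The FOXA1 effect lay above the TRIM28 effect in 952 genes (5.98% of those tested) and below it in 731 (4.59%), and the difference was at least 2-fold in 222 and 165 of them. When libraries were scaled by their totals alone, 40.01% of the called genes had the FOXA1 effect above, against 56.57% with TMM scaling. The FOXA1 knockdown by itself changed 7923 genes (49.8%; 25.2% up and 24.6% down) and the TRIM28 knockdown 3978 (25.0%; 13.5% up and 11.5% down). These counts came from the 6 libraries of each pair, and with both effects taken from the fit of all 12 libraries they were 6257 and 5717. Both changed 2994 genes, 2876 of them in the same direction, and Pearson's r between the effects was 0.59 across the 15921 genes, which are not independent replicates. Most shared changes thus had the same sign, and 321 of them also differed in size. Opposite signs were found in 118 genes, and all 118 passed the test of the difference. That pass adds little, because a difference between opposite effects is larger than each effect and comes from the same libraries. Between the control groups no gene was called (0% of those tested, smallest adjusted p = 0.999967), and 384 genes had an unadjusted p under 0.05. DESeq2 and limma-voom also called none between the controls, with 282 and 834 genes under an unadjusted p of 0.05. Without replicate 3 of the TRIM28 knockdown, 3583 genes (22.5%) differed between the knockdowns, 2106 above (13.2%) and 1477 below (9.28%), and 1671 of the 1683 were among them.

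**Figure D1:**
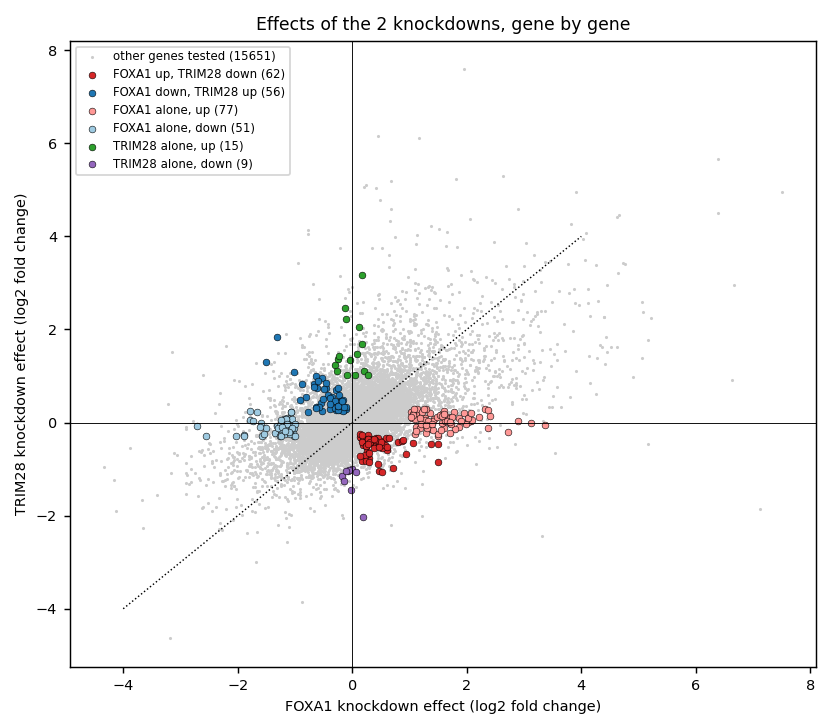
Each point is 1 of the 15921 genes tested, with the FOXA1 knockdown effect on the x axis and the TRIM28 knockdown effect on the y axis, both as log2 fold change against the pair's own controls; the dotted line marks equal effects and colours mark the 6 classes described in the text. Most points lie near the line, the 118 genes with opposite signs sit to the upper left and lower right of the origin, and the genes of 1 knockdown alone lie along the axes.

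Kinds of gene were set apart from these tests, so the values below describe them and add no test of their own. The genes named from each kind also had to show no overlap between control and knockdown libraries in the moving pairs. Lack of overlap there follows from that choice and is no further support. A gene had opposite effects if it was called in both knockdowns with different signs and for the difference. It belonged to 1 knockdown alone if the difference was called, that knockdown's log2 fold change was at least 1 in size and called, and the other was uncalled and within 0.3 of 0. A value that is not called does not show that the gene stayed the same. The median standard error was 0.11 for the FOXA1 effect and 0.16 for the TRIM28 effect, so small effects were called more easily in the FOXA1 pair.

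In the first kind, 62 genes (0.389% of those tested) rose with FOXA1 knockdown and fell with TRIM28 knockdown, with a median FOXA1 effect of 0.35 and a median TRIM28 effect of -0.44. They included the kinase proto-oncogene PIM1, KLK3, which encodes prostate-specific antigen, and the fatty acid desaturase genes FADS1 and FADS2. All 62 kept this class without replicate 3 of the TRIM28 knockdown, when 230 genes belonged to it.

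PIM1 (ENSG00000137193, GRCh38 chromosome 6, 37170152 to 37175428, plus strand) read 9.82, 10.7 and 12 CPM in the FOXA1 controls and 28.3, 30.6 and 33.2 CPM in the FOXA1 knockdown. In the TRIM28 pair it read 11, 12.7 and 10.2 CPM in the controls and 6.78, 5.44 and 6.38 CPM in the knockdown. The FOXA1 knockdown libraries lay above all 6 controls and the TRIM28 knockdown libraries below them (FOXA1 effect 1.5, SE 0.11; TRIM28 effect -0.84, SE 0.17; difference 2.37, SE 0.19, adjusted p = 6.38e-07). KLK3 (ENSG00000142515, GRCh38 chromosome 19, 50854915 to 50860764, plus strand), a classical androgen-induced gene, went from 74.4, 84.4 and 81.1 to 129, 134 and 132 CPM with FOXA1 knockdown. With TRIM28 knockdown it went from 77.7, 83.8 and 78.7 to 45.2, 44.7 and 29.4 CPM, lowest in the replicate that stood apart. Neither pair overlapped, and the difference was 1.73 (SE 0.17, adjusted p = 7.90e-06), or 1.55 without that replicate.

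FADS1 (ENSG00000149485, GRCh38 chromosome 11, 61799627 to 61829318, minus strand), the delta-5 desaturase gene, read 119, 109 and 108 CPM in the FOXA1 controls and 211, 219 and 216 CPM in the knockdown. Its TRIM28 controls read 103, 118 and 108 CPM and the TRIM28 knockdown 62.4, 64.7 and 74.1 CPM. The 2 knockdowns lay on opposite sides of all 6 controls (effects 0.94 and -0.68, difference 1.65, SE 0.11, adjusted p = 8.53e-08). FADS2, the delta-6 desaturase gene, went from 351 ± 15.8 to 993 ± 25.4 CPM (mean and SD, n = 3 libraries) with FOXA1 knockdown and from 337 ± 21.7 to 242 ± 19.2 CPM with TRIM28 knockdown. Its difference of 1.98 was larger still (SE 0.10, adjusted p = 2.53e-09). FADS1 lies on the minus strand inside the span of FADS2 (chromosome 11, 61792980 to 61867354, plus strand), and the strand setting of the counts is not given, so reads of the pair may be shared.

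LRRC26, which encodes an auxiliary subunit of BK potassium channels, read 9.45, 10.6 and 6.29 CPM against 11.5, 13.2 and 13.5 CPM in the FOXA1 pair and 9.02, 9.88 and 9.69 CPM against 5.6, 4.14 and 3.67 CPM in the TRIM28 pair. Its rise with FOXA1 knockdown of 0.53 was 0.34 without FOXA1 control 3, the lowest of the controls (adjusted p = 0.0496), and the difference was 1.62 (SE 0.27, adjusted p = 0.000861). TPRN, which encodes the stereocilia protein taperin, went up by 0.61 and down by 0.53 (difference 1.16, adjusted p = 2.21e-05). The remaining genes of this group with the largest opposite effects were ion channel and metabolic genes. GRIN1, an NMDA receptor subunit gene, had a difference of 1.22, the serotonin receptor gene HTR3A one of 1.11, and PRPS2, which makes the ribose phosphate precursor of nucleotides, one of 1.07 (adjusted p = 0.000730, 0.00126 and 4.36e-05). GRIN1 (chromosome 9, 137138346 to 137168756, plus strand) lies next to LRRC26 (137168758 to 137170051, minus strand), so reads of the pair may be shared. TPRN lies further along the same stretch (137191617 to 137204193, minus strand). Whether these neighbours moved independently was not tested. The falls of GRIN1, HTR3A and PRPS2 with TRIM28 knockdown were less firm than the difference itself. GRIN1 lost that call without any of the 3 TRIM28 controls or without TRIM28 knockdown replicate 1 or 2 (adjusted p = 0.066 to 0.118). HTR3A lost it without control 2 or 3 or knockdown 1 or 2 (0.112 to 0.155), and PRPS2 without control 2 or 3 or knockdown 2 (0.0505 to 0.0565).

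In the second kind, 56 genes (0.352%) fell with FOXA1 knockdown and rose with TRIM28 knockdown, with medians of -0.33 and 0.43. They included RELN, which encodes the secreted glycoprotein reelin, ACVR2B, an activin receptor gene, and CDK6, a kinase gene of the G1 phase. Without replicate 3 of the TRIM28 knockdown 129 genes belonged here, 54 of the 56 among them.

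RELN (ENSG00000189056, GRCh38 chromosome 7, 103471381 to 103989658, minus strand) read 17.4, 14.9 and 16.9 CPM in the FOXA1 controls and 11.2, 9.68 and 10.6 CPM in the FOXA1 knockdown. The TRIM28 controls read 15, 15.4 and 18 CPM and the TRIM28 knockdown 35, 28 and 32.4 CPM. Every FOXA1 knockdown library lay below its controls and every TRIM28 knockdown library above them (effects -0.64 and 1.00, difference -1.62, SE 0.17, adjusted p = 1.28e-05). RAB39B, a small GTPase gene of vesicle traffic, went from 5.71, 5.61 and 5.75 to 1.83, 3.88 and 3.62 CPM and from 7.37, 7.10 and 8.00 to 12.9, 15.1 and 11.2 CPM. SPTLC3, a subunit gene of the enzyme that starts sphingolipid synthesis, went from 11.1, 7.97 and 9.79 to 7.12, 6.02 and 5.88 CPM and from 7.23, 7.24 and 9.04 to 13.9, 11.9 and 17.1 CPM. Neither overlapped in either pair, and the differences were -1.68 (adjusted p = 0.00144) and -1.47 (adjusted p = 0.000892).

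ACVR2B (ENSG00000114739, GRCh38 chromosome 3, 38453890 to 38493142, plus strand) read 51.2, 54 and 48.6 CPM against 31.5, 30.6 and 25.5 CPM in the FOXA1 pair and 47, 45.1 and 51 CPM against 57.9, 68 and 79.1 CPM in the TRIM28 pair (difference -1.33, SE 0.15, adjusted p = 2.78e-05). CDK6 read 17.2, 17.1 and 12.5 CPM against 10.9, 12 and 9.50 CPM and 13.2, 15.2 and 13.4 CPM against 19.5, 20.9 and 39.5 CPM (difference -1.47, adjusted p = 0.0129). TRIM28 knockdown replicate 3 was the highest library for both, and without it the TRIM28 effect of CDK6 was 0.56 and not 0.95. FRMPD2, a FERM and PDZ domain gene, went from 6.83 ± 1.38 to 2.39 ± 0.590 CPM with FOXA1 knockdown. It read 21.8, 20.9 and 7.97 CPM in the TRIM28 knockdown, lowest in that same library, against 7.00 ± 0.362 CPM in the controls (difference -2.78, adjusted p = 0.00167). ZFPM2, a GATA cofactor gene, and FRMD4B, another FERM domain gene, had differences of -1.42 and -1.35 (adjusted p = 0.00599 and 0.00313). The rises with TRIM28 knockdown were less firm than the differences. Leaving out any 1 TRIM28 control ended that call for CDK6 (adjusted p = 0.0794 to 0.105), FRMD4B (0.0876 to 0.0943) and FRMPD2 (0.087 to 0.105), and FRMPD2 also lost it without knockdown 1 or 2 (0.07 and 0.0768). ACVR2B lost it without control 1 or 2 (0.0649 and 0.0682). ZFPM2 lost its TRIM28 call without control 2 or 3 or knockdown 1 or 2 (0.0538 to 0.115) and its FOXA1 call without FOXA1 control 3 or knockdown 1 (0.0894 and 0.108).

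**Figure D2:**
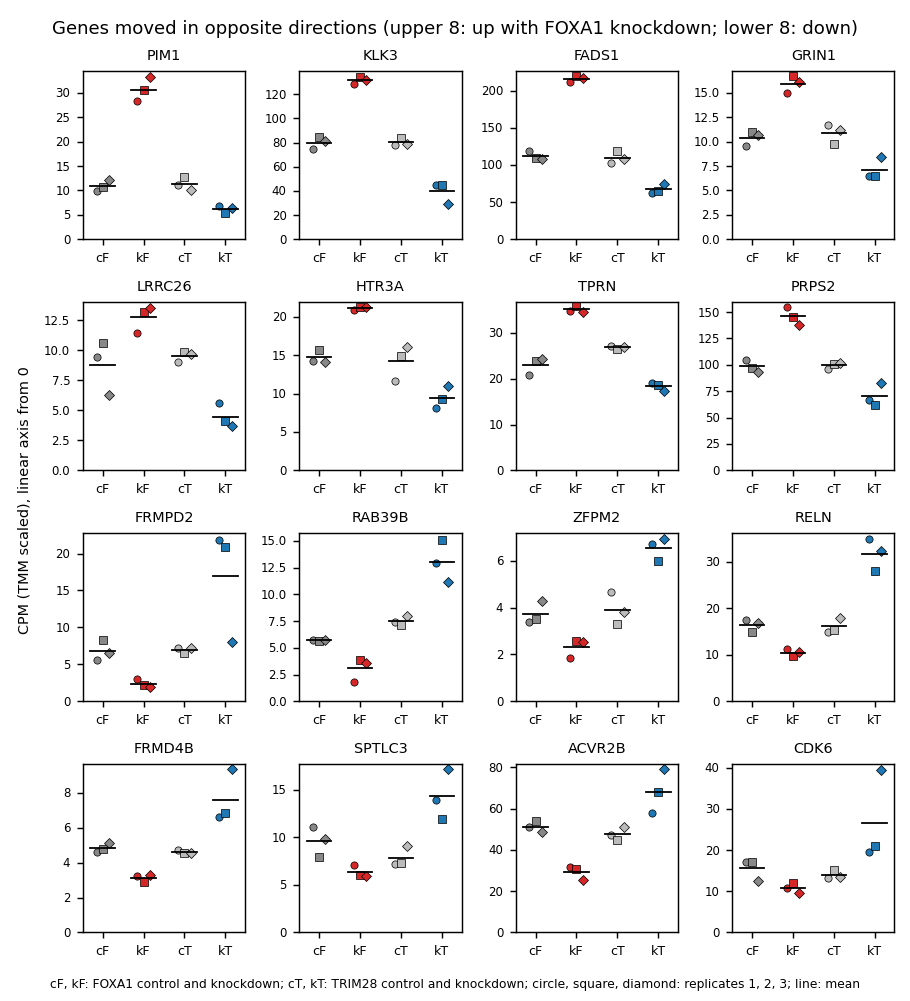
CPM scaled by TMM (y axis, linear from 0) in each of the 12 libraries for the 8 genes of each opposite kind with the largest smaller effect; points are libraries, marker shapes are replicates 1 to 3 and lines are group means. The controls of both pairs lie at similar levels, and the knockdown libraries move to opposite sides of them, with CDK6 and FRMPD2 spread widest in the TRIM28 knockdown.

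With FOXA1 knockdown alone, 77 genes (0.484%) rose and 51 (0.320%) fell, with median FOXA1 effects of 1.55 and -1.19. Signalling, adhesion and transport genes were among those that rose, such as PPP1R1B, MFSD2A and ITGA11, and genes of androgen glucuronidation and of the cell surface, such as UGT2B15 and MMP16, among those that fell. Without replicate 3 of the TRIM28 knockdown, 52 of the 77 and 32 of the 51 stayed in their class, while 76 and all 51 were still called for the difference.

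PPP1R1B (ENSG00000131771, GRCh38 chromosome 17, 39626740 to 39636626, plus strand), which encodes the phosphatase inhibitor DARPP-32, read 2.78, 3.51 and 3.73 CPM in the FOXA1 controls and 23.5, 19.1 and 23.3 CPM in the FOXA1 knockdown. In the TRIM28 pair it read 2.79, 3.66 and 3.63 CPM and 3.10, 3.37 and 2.07 CPM, which overlap (FOXA1 effect 2.72, SE 0.15; TRIM28 effect -0.21, SE 0.28; difference 2.95, SE 0.29, adjusted p = 4.75e-06). MFSD2A, a transporter gene for lysophosphatidylcholine with long fatty acid chains, went from 3.37, 3.98 and 5.28 to 21.1, 22.8 and 21 CPM with FOXA1 knockdown and read 5.37, 4.32 and 5.25 CPM and 4.79, 3.98 and 4.70 CPM in the other pair (difference 2.51, adjusted p = 5.13e-06). ITGA11, a collagen-binding integrin gene, went from 0.879, 0.608 and 0.932 to 7.46, 7.01 and 6.52 CPM, against 0.787, 1.24 and 1.05 and 0.811, 0.689 and 1.51 CPM (difference 3.15, adjusted p = 0.000293). For all 3 the FOXA1 knockdown libraries stood clear of the other 9. PGLYRP2, a peptidoglycan recognition gene, MYO7B, a microvillus myosin gene, and RASAL3, a Ras GTPase activator gene, had differences of 2.89, 3.46 and 2.28 (adjusted p = 0.000162, 0.00644 and 0.00159). PGLYRP2 (15468645 to 15498956) and RASAL3 (15451624 to 15464544) are near each other on chromosome 19, both on the minus strand.

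Among the genes that fell, VWA2 (ENSG00000165816, GRCh38 chromosome 10, 114239254 to 114294489, plus strand), which encodes a basement membrane protein, went from 20, 21.6 and 23.5 to 5.42, 7.62 and 6.45 CPM with FOXA1 knockdown and read 22.8, 21.5 and 25.2 CPM against 25.1, 27.2 and 17.4 CPM in the TRIM28 pair. Its FOXA1 knockdown libraries lay below all others (difference -1.75, SE 0.22, adjusted p = 7.11e-05). MMP16, a membrane-bound matrix metalloproteinase gene, went from 31.6, 31.1 and 30.3 to 11.6, 9.45 and 11.6 CPM, against 27.6, 28.2 and 31.1 and 27.4, 32.4 and 18.6 CPM (difference -1.36, adjusted p = 0.000651). In TRIM28 knockdown replicate 3 VWA2, MMP16 and LRRC31, a leucine-rich repeat gene (difference -1.61, adjusted p = 0.00352), were each lower than in the other two. STXBP6, a syntaxin-binding gene of exocytosis, had -1.56 (adjusted p = 0.00664). POTEE, whose reads may be shared with near-identical family members, had -1.57 (adjusted p = 0.0229) and was not called without FOXA1 control 2 or 3, FOXA1 knockdown 1 or 2, or TRIM28 control 2 or 3 (0.051 to 0.0784).

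UGT2B15 (ENSG00000196620, GRCh38 chromosome 4, 68646597 to 68670652, minus strand), which encodes an enzyme that conjugates androgens for removal, went from 35.3, 39.5 and 37.9 to 11.1, 10.8 and 15.1 CPM with FOXA1 knockdown. It read 37.2, 37.2 and 43.5 CPM and 36, 26.7 and 45.3 CPM in the TRIM28 pair, which overlap (difference -1.48, SE 0.23, adjusted p = 0.000808). Without TRIM28 knockdown replicate 3 its TRIM28 effect was -0.30 and called (adjusted p = 0.0328), and reads may be shared with other UGT2B genes. Because FOXA1 is a forkhead protein, the RefSeq promoter windows (250 bases before the start, GRCh38.p14) were searched on both strands for the core letters TGTTTAC or TGTTTGC. The windows of 3 genes from different classes that hold such a core are printed 5′ to 3′ on the gene's strand, with the core in capitals (its reverse complement where it lies on the other strand): UGT2B15 at chr4:68670653-68670902, minus strand, from the genes that fell with FOXA1 knockdown alone, LRRC26 at chr9:137170052-137170301, minus strand, from the genes with opposite effects, and SULF2 at chr20:47786628-47786877, minus strand, from the genes that rose with TRIM28 knockdown alone.
UGT2B15: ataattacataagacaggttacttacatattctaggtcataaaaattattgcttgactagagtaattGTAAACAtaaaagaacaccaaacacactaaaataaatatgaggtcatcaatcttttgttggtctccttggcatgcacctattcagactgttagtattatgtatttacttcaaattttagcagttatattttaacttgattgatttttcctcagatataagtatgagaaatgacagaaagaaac
LRRC26: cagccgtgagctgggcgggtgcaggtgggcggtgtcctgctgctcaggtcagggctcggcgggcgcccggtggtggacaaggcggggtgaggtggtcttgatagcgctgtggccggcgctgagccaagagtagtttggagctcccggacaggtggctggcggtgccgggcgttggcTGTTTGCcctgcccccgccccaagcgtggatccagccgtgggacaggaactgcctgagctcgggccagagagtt
SULF2: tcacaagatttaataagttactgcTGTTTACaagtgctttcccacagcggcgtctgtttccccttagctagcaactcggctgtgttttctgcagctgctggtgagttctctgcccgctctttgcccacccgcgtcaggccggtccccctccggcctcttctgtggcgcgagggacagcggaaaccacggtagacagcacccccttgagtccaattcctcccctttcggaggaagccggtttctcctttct
A match of these letters is not a binding site. They occurred in 464 of the 11184 tested genes with a window (4.15%) and in 6.05% of all 27305 RefSeq windows. Among genes with a window, the share was 1 of 38 for the genes that fell and 4 of 51 for those that rose with FOXA1 knockdown alone, 2 of 47 and 1 of 44 for the opposite kinds, and 2 of 12 and 0 of 5 for TRIM28 knockdown alone. Among all genes called for the difference it was 3.87% of those with the FOXA1 effect above and 5.51% of those below.

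With TRIM28 knockdown alone, 15 genes (0.0942%) rose and 9 (0.0565%) fell. SULF2, which trims sulfates from heparan sulfate at the cell surface, and the actin regulator gene CYFIP2 were among those that rose, and those that fell held the islet transcription factor gene RFX6 and the mitosis genes AURKB, CENPM and PKMYT1. Without replicate 3 of the TRIM28 knockdown 56 genes rose alone and 25 fell alone, with 13 of the 15 and all 9 among them.

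SULF2 (ENSG00000196562, GRCh38 chromosome 20, 47656197 to 47786616, minus strand) read 2.12, 1.76 and 2.56 CPM and 1.76, 2.67 and 1.49 CPM in the FOXA1 pair, and 1.65, 2.41 and 2.58 CPM against 14.8, 12.7 and 8.13 CPM in the TRIM28 pair. The TRIM28 knockdown libraries stood above the other 9, lowest in replicate 3 (TRIM28 effect 2.45, SE 0.28; FOXA1 effect -0.12, SE 0.30; difference -2.55, SE 0.41, adjusted p = 0.000591). PLEKHH2, a pleckstrin homology domain gene, went from 5.08, 5.78 and 5.25 to 13.3, 15.6 and 14.2 CPM with TRIM28 knockdown (difference -1.64, adjusted p = 0.000203) and CYFIP2 from 39.9, 43.8 and 40.3 to 125, 112 and 71.6 CPM (difference -1.36, adjusted p = 0.00183). Their FOXA1 effects were -0.22 and -0.04, both uncalled. DNAH10, an axonemal dynein gene, had a difference of -1.91 (adjusted p = 0.00384). FAS, which encodes a death receptor, had -1.5 (adjusted p = 0.0305) and HIC2, which encodes a transcriptional repressor, -1.09 (adjusted p = 0.0374). The last 2 were borderline. The difference of FAS was not called without FOXA1 control 2 or 3, any FOXA1 knockdown library, TRIM28 control 1 or 3, or TRIM28 knockdown 1 or 2 (adjusted p = 0.0531 to 0.0926), and its TRIM28 effect not without any TRIM28 control or knockdown 1 or 2 (0.0588 to 0.0974). That of HIC2 was not called without FOXA1 control 2 or 3, any FOXA1 knockdown library or any TRIM28 control (0.0534 to 0.126), nor its TRIM28 effect without TRIM28 control 2 (0.0521).

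RFX6 (ENSG00000185002, GRCh38 chromosome 6, 116877212 to 116932161, plus strand) read 9.52, 9.14 and 8.64 CPM in the TRIM28 controls and 1.92, 1.92 and 2.79 CPM in the TRIM28 knockdown, against 7.33, 10.7 and 6.84 CPM and 7.80, 11.2 and 9.71 CPM in the FOXA1 pair. The 3 TRIM28 knockdown libraries were the lowest of the 12 (TRIM28 effect -2.02, SE 0.22; difference 2.24, SE 0.30, adjusted p = 0.000112). Its FOXA1 effect of 0.20 was 0.43 and called without FOXA1 control 2 (adjusted p = 0.0466). AURKB, which encodes the kinase of the chromosomal passenger complex, went from 42, 45.2 and 41.5 to 20.1, 19.8 and 21.5 CPM with TRIM28 knockdown, against 42.5, 41.8 and 37.4 and 38, 38.5 and 38.3 CPM in the FOXA1 pair. CENPM, a centromere protein gene, went from 33.7, 31.4 and 30.3 to 14.2, 13.9 and 14 CPM, against 31.2, 31.6 and 26.3 and 26.3, 25.4 and 27.1 CPM. All 3 TRIM28 knockdown libraries lay below the other 9 for both genes, replicate 3 included (differences 0.98 and 1.01, adjusted p = 4.00e-05 and 0.000140). HES4, a Notch-responsive repressor gene, EBP, a sterol isomerase gene, and PKMYT1, which encodes an inhibitory kinase of CDK1, had differences of 1.15, 1.03 and 1.14 (adjusted p = 0.000336, 0.00821 and 0.0122). Without FOXA1 control 3 the small FOXA1 effects of CENPM (-0.26, adjusted p = 0.0176) and PKMYT1 (-0.30, 0.0104) were called, so they then moved with both knockdowns.

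**Figure D3:**
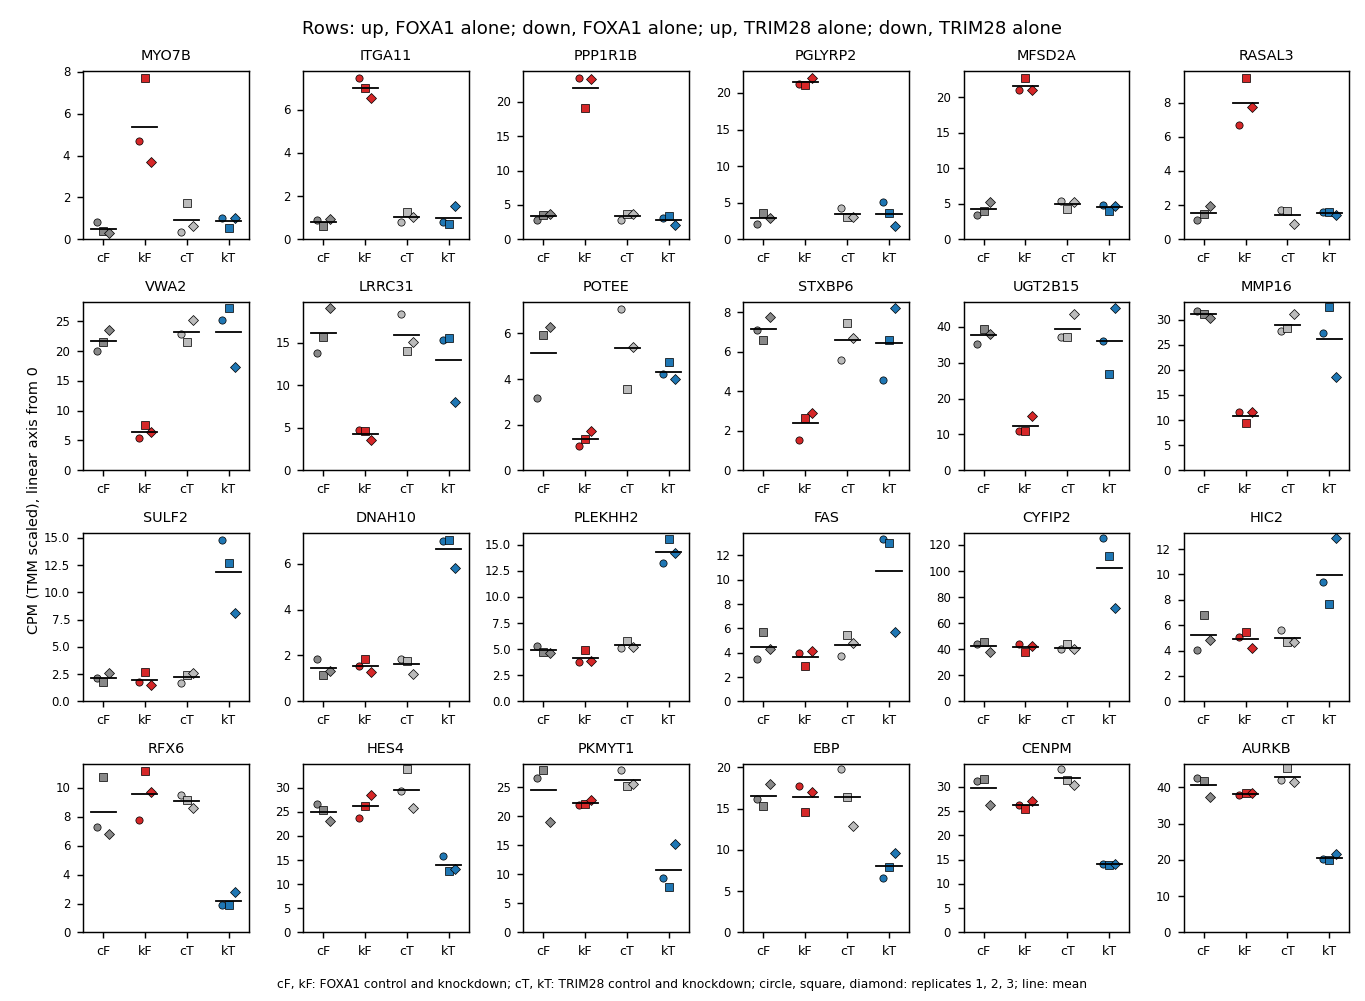
CPM scaled by TMM (y axis, linear from 0) in each library for the 6 genes of each single-knockdown kind with the largest difference; points are libraries, marker shapes are replicates 1 to 3 and lines are group means. In the upper 12 panels the FOXA1 knockdown stands apart from the other 3 groups, and in the lower 12 the TRIM28 knockdown does (for FAS not replicate 3, at 5.74 CPM), with replicate 3 of the TRIM28 knockdown nearest to the controls for SULF2, FAS and CYFIP2.

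In 321 genes the knockdowns moved expression in the same direction but by different amounts, 181 up (1.14%) and 140 down (0.879%). The largest differences were in genes that rose far more with FOXA1 knockdown, among them the small heat shock protein gene CRYAB, the transcription factor gene SOX9, the kinase gene SGK1 and the endothelin gene EDN2. CRYAB went from 1.39, 1.15 and 2.02 to 53.6, 58.4 and 56.9 CPM with FOXA1 knockdown and from 0.573, 1.46 and 1.05 to 5.82, 6.21 and 2.39 CPM with TRIM28 knockdown (difference 2.99, SE 0.54, adjusted p = 0.00271). SOX9 went from 4.40, 6.55 and 4.43 to 102, 101 and 98.1 CPM and from 4.80, 5.12 and 5.25 to 15.4, 14.2 and 9.57 CPM (difference 2.91, SE 0.24, adjusted p = 1.20e-06). Neither gene's libraries overlapped in either pair, which was a condition for naming them, and replicate 3 rose least in the TRIM28 knockdown. EDN2 and SGK1 had differences of 2.82 and 2.74 (adjusted p = 1.29e-05 and 5.56e-05). Their smaller TRIM28 rises of 1.11 and 1.42 were not called without TRIM28 control 1 or 2 for EDN2 (0.0518 and 0.0578) and without control 3 for SGK1 (0.0542).

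Among genes that fell in both, SLC30A10, a manganese exporter gene, went from 5.35, 4.32 and 5.83 to 0.475, 0.533 and 0.425 CPM with FOXA1 knockdown and from 3.79, 4.83 and 5.33 to 1.62, 0.919 and 2.07 CPM with TRIM28 knockdown (difference -1.82, adjusted p = 0.0132). PPARGC1A, which encodes a coactivator of mitochondrial genes, had a difference of -1.61, the albumin gene ALB -1.47 and CCDC141 -1.45 (adjusted p = 0.00454, 0.0133 and 0.00432). Each fell further with FOXA1 knockdown. Their TRIM28 falls were not called without any 1 of the TRIM28 controls or knockdown 1 or 2 for PPARGC1A (0.0902 to 0.115) and CCDC141 (0.0561 to 0.0744), and without control 3 for ALB (0.054).

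Androgen-responsive genes split between the knockdowns. Over all genes tested, to set beside the counts of each list below, 5.98% had the FOXA1 effect above and 4.59% below. Without replicate 3 of the TRIM28 knockdown these shares were 13.2% and 9.28%. Of 30 androgen-induced genes tested, 16 were called for the difference (53.3%, against 10.6% of all genes), 12 with the FOXA1 effect above and 4 below, with a median difference of 0.32 (all genes 0.00). FOXA1 knockdown raised 13 and lowered 13, against 25.2% and 24.6% of all genes. TRIM28 knockdown raised 1 and lowered 12, against 13.5% and 11.5%. The median log2 ratio of the list to its control mean was 0.15, 0.06 and 0.06 in the FOXA1 knockdown libraries and -0.36, -0.28 and -0.37 in the TRIM28 knockdown libraries. All 3 TRIM28 knockdown libraries lay below all 3 of FOXA1. TMPRSS2, the androgen-induced protease gene, rose from 283 ± 4.14 to 345 ± 7.03 CPM with FOXA1 knockdown and fell from 282 ± 3.23 to 153 ± 2.74 CPM with TRIM28 knockdown (difference 1.16, SE 0.08, adjusted p = 8.53e-08). FKBP5, an androgen-induced cochaperone gene of steroid receptors, went from 299.5, 306 and 298 to 655, 628 and 638 CPM and from 276, 297 and 279.7 to 232, 257 and 214 CPM. It passed as risen with FOXA1 knockdown alone, but its TRIM28 effect of -0.25 (adjusted p = 0.0550) was called without TRIM28 knockdown 2 (0.0441) or 3 (0.0158). ELL2, an elongation factor gene, had a difference of 1.09 (adjusted p = 1.60e-05), with a TRIM28 effect of -0.30 that was called without replicate 3 (-0.38, 0.000106). Without replicate 3 of the TRIM28 knockdown the list had 14 above and 6 below.

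Of 18 androgen-repressed genes, none had the FOXA1 effect above and 7 had it below (median difference -0.77). FOXA1 knockdown lowered 10 and raised 5, against 24.6% and 25.2% of all genes. TRIM28 knockdown lowered 2 and raised 4, against 11.5% and 13.5%. The 5 raised with FOXA1 knockdown and the 2 lowered with TRIM28 knockdown are shares near those of all genes. DDC, which encodes aromatic amino acid decarboxylase, fell from 45 ± 2.36 to 9.05 ± 0.0769 CPM with FOXA1 knockdown and from 43.2 ± 0.782 to 19.96 ± 2.73 CPM with TRIM28 knockdown (difference -1.20, adjusted p = 3.94e-05). UGT2B11, a relative of UGT2B15, had a difference of -1.29 (adjusted p = 0.00835) and a TRIM28 effect of -0.67, called without TRIM28 knockdown replicate 3 (-0.90, 0.000492). KIF5C, a kinesin gene, rose by 0.43 with TRIM28 knockdown with -0.09 in the FOXA1 knockdown, uncalled (difference -0.50, adjusted p = 0.00396). Without replicate 3 the counts were 1 above and 8 below.

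Luminal lineage genes had the FOXA1 effect above in 8 of 25 and below in none (median 0.27; 12 and 0 without replicate 3 of the TRIM28 knockdown). CLDN4, a claudin gene of tight junctions, went from 128 ± 8.07 to 327 ± 12.4 CPM with FOXA1 knockdown and from 123 ± 5.85 to 141 ± 21.4 CPM with TRIM28 knockdown (difference 1.17, adjusted p = 1.67e-05). Its TRIM28 effect of 0.22 was called without TRIM28 knockdown replicate 3 (0.33, adjusted p = 0.000114). HOXB13, a prostate homeobox gene, rose by 0.18 with FOXA1 knockdown and fell by 0.38 with TRIM28 knockdown (difference 0.58, adjusted p = 0.000421). GRHL2 and GATA2, both transcription factor genes of the luminal programme, rose with FOXA1 knockdown (0.70 and 0.40) and were uncalled with TRIM28 knockdown (-0.06 and -0.30, differences 0.78 and 0.72, adjusted p = 4.69e-05 and 0.000770). The TRIM28 effect of GATA2 was called without TRIM28 knockdown replicate 1 (-0.40, adjusted p = 0.0266) or 3 (-0.20, 0.0112). Of 12 basal epithelial genes tested, 1 had the FOXA1 effect above, a share near that of all genes, and 2 below. The called ones were the keratin gene KRT15, the laminin gene LAMA3 and the dystonin gene DST, of which DST alone kept its call in every library left out (difference -0.99, adjusted p = 0.00194).

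Genes of fatty acid synthesis and desaturation had the FOXA1 effect above in 11 of 33 and below in 2 (39.4% called, median 0.17; 13 and 3 without replicate 3 of the TRIM28 knockdown). FOXA1 knockdown raised 17 and lowered 8, against 25.2% and 24.6% of all genes. TRIM28 knockdown raised 5 and lowered 8, and its 5 raised genes are a share near the 13.5% of all genes. Besides FADS1 and FADS2, the elongase gene ELOVL5 rose from 753, 803 and 794 to 957, 928 and 971 CPM with FOXA1 knockdown and fell from 768, 789.5 and 789 to 441, 444 and 483 CPM with TRIM28 knockdown (difference 1.06, SE 0.08, adjusted p = 4.27e-07). The libraries of the 2 knockdowns lay on opposite sides of all 6 controls. HACD2, which encodes a dehydratase of fatty acid elongation, rose by 0.80 with FOXA1 knockdown and had -0.02 with TRIM28 knockdown (difference 0.85, adjusted p = 1.88e-05). Cholesterol synthesis genes had the FOXA1 effect above in 4 of 26 and below in none (9 and 1 without replicate 3). FDFT1, the squalene synthase gene, and INSIG1, a sterol-responsive regulator gene, rose with FOXA1 knockdown by 0.43 and 0.67 and had -0.05 and -0.01 with TRIM28 knockdown (differences 0.50 and 0.71, adjusted p = 0.000658 and 0.00166).

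The S phase and mitosis lists had called genes only with the FOXA1 effect above the TRIM28 effect. These were 15 of 42 S phase genes (35.7%, median difference 0.58) and 6 of 43 mitosis genes (14%, median 0.40). CDK6, a G1 kinase gene, lay in the other direction, as described above. TRIM28 knockdown lowered 19 S phase genes and raised 1, against 11.5% and 13.5% of all genes. FOXA1 knockdown lowered 15 and raised 13, against 24.6% and 25.2%. Of the 43 mitosis genes, TRIM28 knockdown lowered 19 and raised none, and FOXA1 knockdown lowered 25 and raised 4. The counts of both lists depended on 1 library. The median log2 ratio of the S phase genes was -0.72 and -0.67 in TRIM28 knockdown replicates 1 and 2 but -0.17 in replicate 3, and between 0.00 and 0.04 in the FOXA1 knockdown. Mitosis genes had -1.02, -0.92 and -0.15 in the TRIM28 knockdown and -0.20, -0.21 and -0.22 in the FOXA1 knockdown. Without replicate 3 of the TRIM28 knockdown, 39 of 42 S phase genes and 42 of 43 mitosis genes had the FOXA1 effect above, and none below. With any other single library left out, at least 14 S phase and 3 mitosis genes were above.

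E2F1, the cell cycle transcription factor gene, read 77.3, 87.6 and 76.9 CPM in the TRIM28 controls and 30.8, 29.3 and 42.2 CPM in the TRIM28 knockdown, against 80.1, 80.8 and 74 CPM and 59.9, 62.9 and 66.3 CPM in the FOXA1 pair. It fell in both knockdowns, further with TRIM28 knockdown, where replicate 3 was the highest of the 3 (difference 0.93, SE 0.15, adjusted p = 0.000794). CDT1, a replication licensing gene, followed the same order (-0.46 and -1.42, difference 0.98, adjusted p = 0.00188). FEN1, the flap endonuclease gene, differed in kind: it rose from 67.6, 76.5 and 66.4 to 143, 120.3 and 134 CPM with FOXA1 knockdown and read 71.7, 67.2 and 72.3 CPM against 59.2, 64.2 and 84.8 CPM in the TRIM28 pair (difference 0.94, adjusted p = 0.000991). FEN1 (chromosome 11, 61792911 to 61797238, plus strand) lies almost wholly inside the span of FADS2 on the same strand, so reads of the pair may be shared. CDC20, an activator gene of the anaphase-promoting complex, fell by 0.81 with TRIM28 knockdown and had -0.03 with FOXA1 knockdown (difference 0.81, adjusted p = 0.0142). The kinetochore gene NUF2 fell in both, by 0.32 and 0.99 (difference 0.69, adjusted p = 0.0157). With a trend on GC content and gene span removed from each library, the differences of CDC20 (0.63, adjusted p = 0.167) and CDT1 (0.70, 0.0829) and the TRIM28 fall of CDC20 (-0.68, 0.0525) were not called.

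Targets of p53 lay on the other side, with 8 of 37 below, 1 above and a median difference of -0.58. TRIM28 knockdown raised 26 and lowered 2 of them, against 13.5% and 11.5% of all genes. FOXA1 knockdown raised 19 and lowered 5, against 25.2% and 24.6%. The list's median log2 ratio was 1.03, 0.93 and 0.31 in the TRIM28 knockdown libraries and 0.25, 0.28 and 0.22 in those of FOXA1, and without TRIM28 knockdown replicate 3 the counts were 26 below and 1 above. GADD45A, a DNA damage response gene, went from 60.5, 55.8 and 59.3 to 36.9, 43.6 and 40.3 CPM with FOXA1 knockdown and from 49.97, 61.3 and 49.8 to 72.1, 80.1 and 59 CPM with TRIM28 knockdown (difference -0.93, adjusted p = 0.000845). The FOXA1 pair did not overlap, and the TRIM28 pair overlapped in replicate 3. Its TRIM28 rise of 0.42 was not called without any 1 of the 3 controls or knockdown 1 or 2 (adjusted p = 0.0581 to 0.198). SESN2, a stress-responsive sestrin gene, rose by 0.60 with TRIM28 knockdown and had -0.12 with FOXA1 knockdown (difference -0.70, adjusted p = 0.00275), which was called without FOXA1 control 3 (-0.20, adjusted p = 0.0184) or knockdown 2 (-0.21, 0.043). BTG1, an antiproliferative gene, was the 1 with the FOXA1 effect above (1.14 and 0.35, difference 0.81, adjusted p = 0.000336), and GDF15, a stress cytokine gene, fell in both and further with FOXA1 knockdown (-2.18 and -1.21, difference -0.94, adjusted p = 0.0158). The TRIM28 rise of BTG1 was lost without TRIM28 control 1 or 3 or knockdown 1 or 2 (0.0831 to 0.207).

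**Figure D4:**
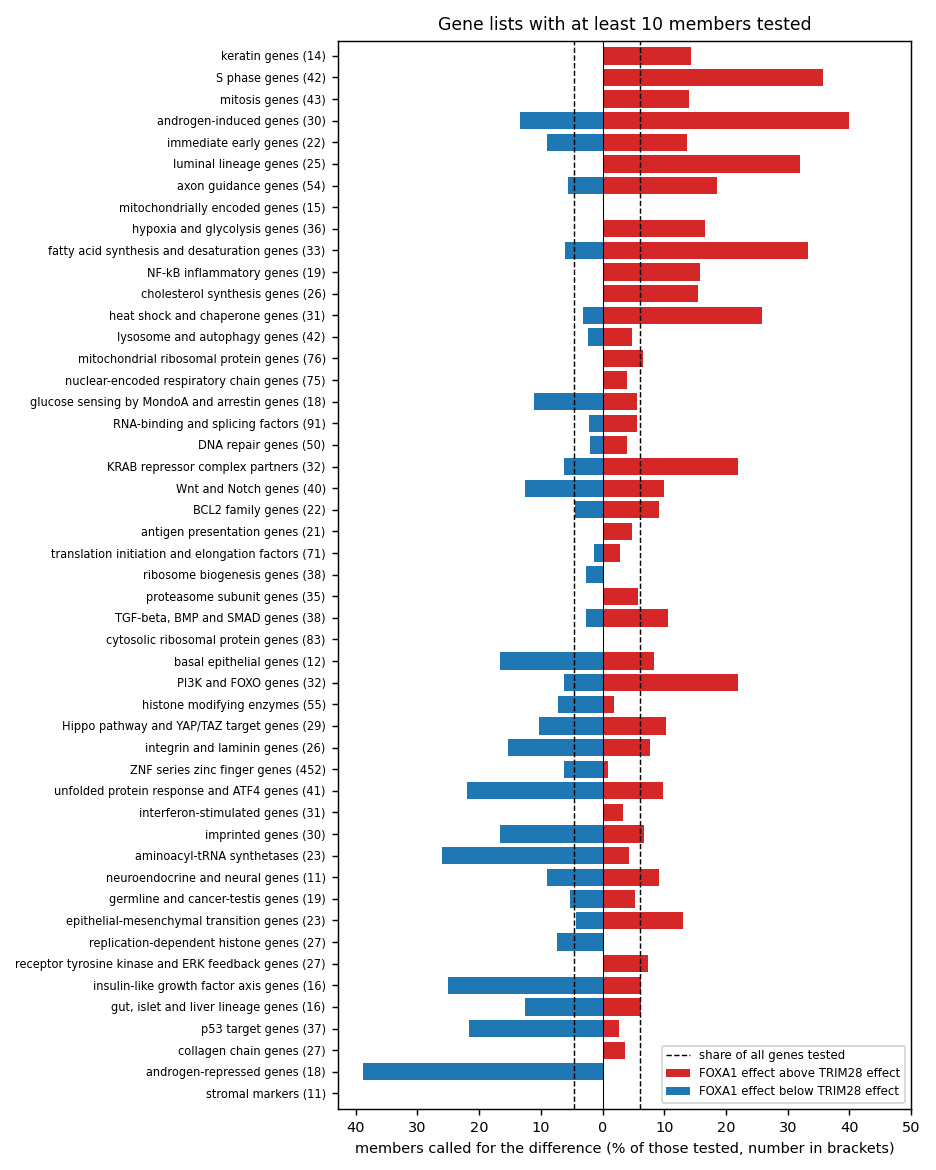
Share of tested members (x axis, percent) called for the difference in each gene list with at least 10 members tested, with the FOXA1 effect above (right, red) or below (left, blue) the TRIM28 effect; numbers in brackets are members tested and dashed lines are the shares over all genes tested, 5.98% and 4.59%. Androgen-induced, S phase, luminal and fatty acid genes reach furthest to the right, and androgen-repressed genes and aminoacyl-tRNA synthetases furthest to the left.

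In the lists of the unfolded protein response and of aminoacyl-tRNA synthetases, more of the called genes had the FOXA1 effect below. Of 41 unfolded protein response and ATF4 genes 9 were below and 4 above (5 above and 14 below without replicate 3 of the TRIM28 knockdown, and 2 above and 17 below with library totals as the only scaling). SLC7A11, the cystine transporter gene, fell from 364, 335 and 359.7 to 201, 219 and 195 CPM with FOXA1 knockdown and went from 326, 356 and 352 to 384, 401 and 409 CPM with TRIM28 knockdown (difference -0.99, SE 0.09, adjusted p = 2.79e-06). The libraries did not overlap in either pair, but the TRIM28 rise of 0.23 was not called without any 1 of the TRIM28 controls or knockdown 1 or 2 (0.0651 to 0.247). MANF, a secreted stress factor gene of the endoplasmic reticulum, fell further with TRIM28 knockdown (-0.15 and -0.67, difference 0.54, adjusted p = 0.00275). The FOXA1 call of MANF was lost without FOXA1 control 3 or knockdown 1 or 2 (0.0641 to 0.09). Aminoacyl-tRNA synthetase genes had the FOXA1 effect below in 6 of 23 and above in 1 (7 and 2 without replicate 3). FOXA1 knockdown lowered 17 (24.6% of all genes) and TRIM28 knockdown 8 (11.5% of all genes). GARS1, the glycyl-tRNA synthetase gene, fell from 482 ± 18.8 to 375 ± 10.2 CPM with FOXA1 knockdown and read 498 ± 3.77 and 499.9 ± 42.9 CPM in the TRIM28 pair (difference -0.37, adjusted p = 0.0149). TARS1 differed by as much (-0.37, adjusted p = 0.0166, or 0.0529 without TRIM28 control 1).

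Among the called heat shock and hypoxia genes, more had the FOXA1 effect above than below. Heat shock and chaperone genes were above in 8 of 31 and below in 1 (14 and 1 without replicate 3 of the TRIM28 knockdown, 7 and 2 with library totals). HSPB1, a small heat shock protein gene, rose from 625, 652 and 553 to 743, 715 and 743 CPM with FOXA1 knockdown and fell from 632, 695 and 604 to 423, 345 and 415 CPM with TRIM28 knockdown (difference 0.97, SE 0.12, adjusted p = 3.72e-05). DNAJB4, an HSP40 cochaperone gene, was the 1 below: it fell by 1.15 with FOXA1 knockdown and had -0.02 with TRIM28 knockdown (difference -1.11, adjusted p = 2.36e-05). Hypoxia and glycolysis genes were above in 6 of 36 and below in none (16 and 1 without replicate 3, 5 and 1 with library totals). NDRG1, a gene induced by both hypoxia and androgen, went from 1065 ± 25.4 to 2260.0 ± 74.7 CPM with FOXA1 knockdown and read 1038 ± 148 and 1073 ± 111 CPM in the TRIM28 pair (difference 1.04, adjusted p = 5.02e-05). HIF1A rose by 0.51 with FOXA1 knockdown and had -0.07 with TRIM28 knockdown (difference 0.59, adjusted p = 0.00115).

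PI3K and FOXO genes were above in 7 of 32 and below in 2 (12 and 5 without replicate 3, 5 and 4 with library totals). INPP4B, a phosphoinositide phosphatase gene, fell from 50.6 ± 0.719 to 6.72 ± 0.972 CPM with FOXA1 knockdown and from 49.2 ± 3.71 to 16.6 ± 0.842 CPM with TRIM28 knockdown (difference -1.34, adjusted p = 1.87e-05), and FOXO3 rose by 0.73 with FOXA1 knockdown (difference 0.56, adjusted p = 0.000808). FOXO3 had a TRIM28 effect of 0.19, called without TRIM28 knockdown replicate 3 (0.23, adjusted p = 0.00434). Insulin-like growth factor axis genes were below in 4 of 16 and above in 1 (4 and 1 without replicate 3, 6 and 0 with library totals). The receptor substrate gene IRS2 fell by 1.43 with FOXA1 knockdown and had -0.47 with TRIM28 knockdown, called without replicate 3 (-0.61, adjusted p = 0.00119), and the difference was -0.93 (adjusted p = 0.00664). IGF1 itself fell in both, by 2.21 and 1.02 (difference -1.17, adjusted p = 0.0164, or 0.0511 without FOXA1 knockdown replicate 2). Axon guidance genes were above in 10 of 54 and below in 3 (13 and 5 without replicate 3, 9 and 5 with library totals). The 3 below are a share near that of all genes. SEMA3F, a secreted semaphorin gene, rose by 1.57 and SEMA6A, a membrane semaphorin gene, fell by 0.84 with FOXA1 knockdown, with TRIM28 effects of 0.14 and -0.04 (differences 1.46 and -0.78, adjusted p = 0.000214 and 2.12e-05). Without TRIM28 knockdown replicate 3 SEMA3F was called with TRIM28 knockdown too (0.32, adjusted p = 0.0382).

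Zinc finger genes and partners of TRIM28 were split. Of 452 ZNF series zinc finger genes 28 were below and 4 above (7.08% called, against 10.6% of all genes, median -0.12; 61 and 20 without replicate 3). TRIM28 knockdown raised 122 and lowered 18, against 13.5% and 11.5% of all genes. FOXA1 knockdown raised 128 and lowered 72, of which the raised share is near the 25.2% of all genes. ZNF197 rose by 0.78 with TRIM28 knockdown and had 0.13 with FOXA1 knockdown (difference -0.62, adjusted p = 0.00319), whereas ZNF589 rose by 1.61 with FOXA1 knockdown and had 0.19 with TRIM28 knockdown (difference 1.44, adjusted p = 8.56e-05). Among 32 KRAB repressor complex partners 7 were above and 2 below (10 and 4 without replicate 3, 6 and 3 with library totals). The 2 below are a share near that of all genes. TRIM33, a family member, and CBX5, which encodes HP1 alpha, rose with FOXA1 knockdown by 0.47 and 0.29, with -0.02 and -0.14 in the TRIM28 knockdown (differences 0.51 and 0.46, adjusted p = 0.00805 and 0.00931). CBX5 was called with TRIM28 knockdown when replicate 3 was left out (-0.22, adjusted p = 0.00551). DNMT3A, a DNA methyltransferase gene, was below (0.22 and 0.90, difference -0.65, adjusted p = 0.00200), and its FOXA1 effect was not called without FOXA1 control 1 (0.0674) or knockdown 1 (0.0795). None of 6 endogenous retrovirus loci and none of 6 clustered protocadherins tested was called for the difference by edgeR's quasi-likelihood test (2 and 0 under an unadjusted p of 0.05), none by DESeq2, and 1 retrovirus locus by limma-voom. TRIM28 knockdown raised 3 of the 6 retrovirus loci and 1 of the 6 protocadherins, against 13.5% of all genes. FOXA1 knockdown raised none of the loci and 1 protocadherin, against 25.2%. The median differences were -0.29 and -0.62. The locus ERVE-1 rose by 1.63 with TRIM28 knockdown (adjusted p = 0.00341) and had 0.48 with FOXA1 knockdown, uncalled. Its difference was -1.12 (adjusted p = 0.103), called without replicate 3 of the TRIM28 knockdown (-1.31, adjusted p = 0.0161).

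Most cytosolic ribosomal protein genes passed as lowered in each knockdown. Of 83 cytosolic ribosomal protein genes none was called for the difference in either direction by edgeR's quasi-likelihood test, with 8 under an unadjusted p of 0.05. DESeq2 called 1 above, limma-voom 6 above and 4 below, and without replicate 3 of the TRIM28 knockdown 6 were above and 5 below. FOXA1 knockdown lowered 58 of the 83 (24.6% of all genes) and TRIM28 knockdown 61 (11.5% of all genes), both with a median of -0.42. RPL13A, whose reads may be shared with its pseudogenes, had the smallest p of the list, with effects of -0.37 and -0.61 (difference 0.26, adjusted p = 0.0597, or 0.00733 without replicate 3 of the TRIM28 knockdown). Nuclear-encoded respiratory chain genes were above in 3 of 75 (4%, under the 5.98% of all genes), with 35 lowered by FOXA1 knockdown and 33 by TRIM28 knockdown (24.6% and 11.5% of all genes), and none of the 3 was called with library totals as the only scaling. The stromal list held 15 genes, 11 of them tested, and differs from the 11 stromal markers above, of which 7 were tested. Its 11 tested genes were all uncalled by edgeR's quasi-likelihood test, DESeq2 and limma-voom (1 under an unadjusted p of 0.05 with edgeR). Their median difference was -1.40, and -0.28 at its smallest when 1 library was left out.

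Genes called for the difference also differed in base composition and length, which the tests did not use. The median GC content of the longest transcript was 54.2% for genes with the FOXA1 effect above, 43.0% for those below and 48.2% for all genes tested. Gene span had medians of 24090 bases above, 90430 bases below and 27812 bases over all genes. When genes were divided into 5 equal bins by GC content, 332 of 3089 were above and 32 below in the highest bin, and in the lowest 87 of 3090 were above and 271 below. Over the GC bins a trend was seen in TRIM28 knockdown replicates 2 and 3 and, in the other direction, in the 3 FOXA1 knockdown libraries, whereas TRIM28 knockdown replicate 1 stayed within the range of the controls. In the highest GC bin the median log2 ratio to the controls was -0.01, -0.12 and -0.19 in TRIM28 knockdown replicates 1 to 3 and 0.05, 0.07 and 0.05 in those of FOXA1, while single controls ranged from -0.08 to 0.04. With a trend on GC content and span removed from each library, 1425 genes were called (8.95%), 1143 of them among the 1683, and 63.16% had the FOXA1 effect above. All 62 and all 56 genes with opposite effects kept both signs. Of these, 57 and 45 were still called for the difference, and 40 and 28 stayed in their kind. Among genes described above, the differences of FAS (adjusted p = 0.0510), PKMYT1 (0.0948) and KIF5C (0.0588) were then not called, nor the TRIM28 effects of GRIN1 (0.168), HTR3A (0.0797) and SLC7A11 (0.241) or the FOXA1 effects of FRMD4B (0.0676) and ZFPM2 (0.0847). The TRIM28 effects of HSPB1 (-0.41) and TPRN (-0.33) were smaller by over 1.5 times. The first opposite kind then held 74 genes in place of 62, and the second 33 in place of 56. Fewer genes also fell alone, 26 in place of 51 with FOXA1 knockdown and 2 in place of 9 with TRIM28 knockdown. Of those 51 and 9, 43 and 8 were still called for the difference. With the trend removed, the androgen-induced list had 13 above and 2 below, S phase genes 16 and 0, and mitosis genes 5 and 0. Targets of p53 had 1 above and 9 below, and unfolded protein response and ATF4 genes also 1 and 9. ZNF series genes had 6 above and 18 below. Whether the trend is technical was not tested.

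**Figure D5:**
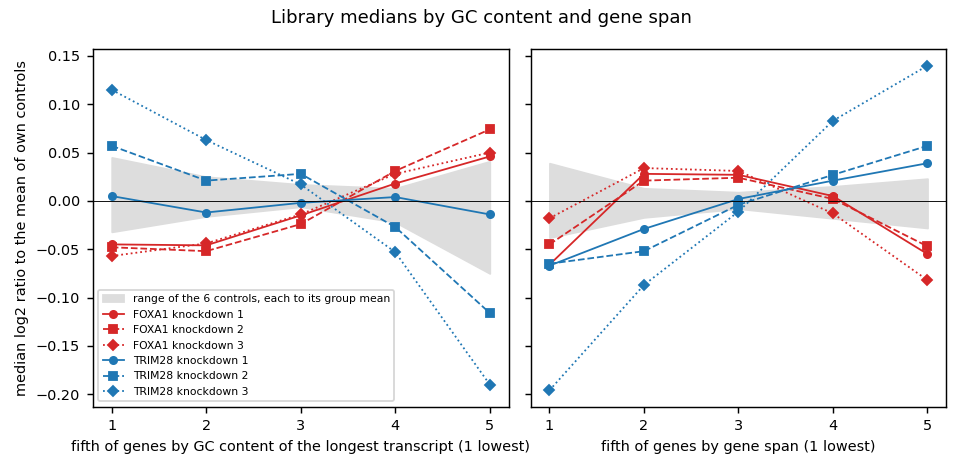
Median log2 ratio of each knockdown library to the mean of its own controls (y axis) over 5 equal bins of genes by GC content of the longest transcript (left) and by gene span (right), from lowest to highest; lines are libraries and the grey band is the range of the 6 single controls. TRIM28 knockdown replicate 3 runs from 0.12 in the lowest to -0.19 in the highest GC bin, the FOXA1 knockdown libraries run the other way over a smaller range, and TRIM28 knockdown replicate 1 stays near 0 for GC content.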

How the data were processed

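Whole-gene read counts of 12 RNA sequencing libraries were analysed as the authors deposited them, in 2 count tables of 6 libraries each. Per the labels' protocols, RNA was extracted with TRIzol and poly(A) mRNA was sequenced. The build is GRCh38 (hg38) per the submitters' processing notes, and no source used here names the aligner, the counting tool or the strand setting. The tables were joined by identifier. The first line of each symbol was kept, which gave 60835 symbols from 62710 lines, and further lines of a symbol were not used. Genes passed edgeR's filterByExpr (minimum count 10, minimum total 15), which left 15921. The difference was tested over 12 libraries with 4 group means, with TMM scaling and edgeR 4.0.16's robust quasi-likelihood test in R 4.3.3. The effect of each knockdown came from its own 6 libraries. P-values were adjusted by Benjamini-Hochberg over all genes tested, at a threshold of 0.05. Alternatives used DESeq2 1.42.0 and limma 3.58.1. CPM values are counts scaled by TMM library size. The scripts were tested on simulated data.

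Named genes were those with the largest smaller effect (opposite kinds) or the largest difference (other kinds) among genes reaching a group mean of 5 CPM with no overlap between control and knockdown libraries in the moving pairs, and up to 4 called members of each list with the smallest p (1 where none was called). The members and gene lists were chosen with earlier results of these data known. The p-values measure the spread between the libraries of a group, and counting error limits genes of few CPM most.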

Additional observations from a re-analysis of the deposited data

How the results depend on the processing

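The number of genes called for the difference was 1980 with DESeq2, 1662 with RLE scaling, 1877 with library totals, 1993 without a filter and 1748 with 10 counts in all libraries. With limma-voom and library weights it was 3464, with 6642 for TRIM28 knockdown, 198 and 127 for the opposite kinds (FOXA1 up first), and 50 up and 21 down with TRIM28 knockdown alone. With a minimum fold change of 1.2 the difference had 708, FOXA1 knockdown 4367, TRIM28 knockdown 1593, the opposite kinds 6 and 4, and TRIM28 knockdown alone 7 up. Library totals left 5 genes down with TRIM28 knockdown alone, and without a filter 1 gene differed between the controls. Effects taken from all 12 libraries gave 102 genes up with FOXA1 and down with TRIM28 knockdown. With no limit on the other knockdown, 144 rose and 97 fell with FOXA1 knockdown alone and 29 rose with TRIM28 knockdown alone. With the GC and span trend removed, chosen after seeing the data, 33 genes fell with FOXA1 and rose with TRIM28 knockdown, 26 fell with FOXA1 knockdown alone and 2 with TRIM28 knockdown alone. A test against a minimum fold change is stricter by construction, and the cause of the other shifts was not tested.

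Leaving out 1 library at a time gave 1199 to 3583 genes for the difference, 1792 to 6932 for TRIM28 knockdown, 28 to 230 and 13 to 129 for the opposite kinds, 30 to 61 down with FOXA1 knockdown alone, and 6 to 56 up and 7 to 25 down with TRIM28 knockdown alone. The highest value came without TRIM28 knockdown replicate 3 for each of these except genes down with FOXA1 knockdown alone. With a replicate block the counts were 1579 for the difference, 8070 for FOXA1 knockdown and 3793 for TRIM28 knockdown, and 67, 45, 84, 47, 11 and 8 for the kinds in the order described. The replicate numbers did not pair the libraries (same-number correlations -0.118 to 0.106, 1 of 18 over 0.1). The TRIM24 difference, uncalled throughout, was 0.006 without a filter, 0.019 with limma-voom, 0.154 with the trend removed, and -0.077 to 0.046 with 1 library left out. Of 186 named genes called for the difference, 121 kept that call in all settings run.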
